A study of Oryza sativa Indica Group with 8 samples.

Results

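Chlorophyll breakdown was represented by 4 genes of the 35961 listed loci, chosen by their locus identifiers: SGR (LOC_Os09g36200), NYC1 (LOC_Os01g12710), NOL (LOC_Os03g45194) and PAO (LOC_Os03g05310). Leaves of Guangluai 4 (GL), an elite rice variety, were compared by RNA-seq with those of OE5, a line made by overexpressing OsPRR37 in GL, with 2 libraries per genotype. OsPRR37 is a negative component of the circadian clock, and GL itself carries a loss-of-function allele of it. Both genotypes were grown for 15 days at 28°C in a cycle of 14 h light and 10 h dark, with no further treatment. Their topmost expanded leaves were taken at a single time in the morning. A different level of a transcript and a shift in its daily timing thus cannot be told apart. OE5 is a single transgenic line, so an effect of the transgene and a difference that belongs to this line cannot be told apart, and the promoter of the transgene is not given in the sources used here. The question was how the transcripts of chlorophyll breakdown differed between OE5 and GL. The deposited tables do not pair locus identifiers with gene names, so the names come from the selection of the loci. In a RefSeq gene table of another rice assembly, 3 of the 4 names were matched and PAO was not. SGR, NYC1 and NOL each had 1 entry, on chromosomes 9, 1 and 3, the same chromosomes that the locus identifiers give. The identifier of PAO places it on chromosome 3.

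Green leaves lose chlorophyll when they age, and a set of chloroplast enzymes takes the pigment apart in a fixed order. Chlorophyll b is first reduced toward chlorophyll a by chlorophyll b reductase, which in rice is formed by the NYC1 and NOL proteins and acts on the light-harvesting complex of photosystem II. SGR, the stay-green protein, removes the central magnesium of chlorophyll a. PAO, pheophorbide a oxygenase, then opens the ring of pheophorbide a, the step that ends the green colour and removes a product that harms cells in light. Rice mutants of SGR, NYC1 or NOL stay green during senescence.

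The total counts on genes ranged from 43423801 in GL-1 to 48284992 in OE5-2. The counts of the 4 genes ranged from 385, for SGR in GL-1, to 3100, for PAO in GL-1. All 4 were among the 19280 genes tested. Leaf markers were high in every library, with 6 of 6 loci for the Rubisco small subunit and light-harvesting proteins summing to 83794 to 99559 TPM in GL and 92030 to 102104 TPM in OE5. TPM corrects for gene length and gives each library the same total. Of 2 loci listed as root markers, LOC_Os03g01700 had at most 1 count in a library, and LOC_Os02g51110 was lower in OE5, with 11.98 and 11.38 TPM in GL and 8.47 and 6.97 TPM in OE5 (a change of -0.75 ± 0.14 on the log2 scale, as value and standard error, with an adjusted p of 0.0208 by edgeR). The part of this difference in the values of the 4 genes was not tested. The locus of the overexpressed gene, taken as LOC_Os07g49460, had 72.9 and 77.3 TPM in GL and 193 and 159 TPM in OE5, so it was higher in the libraries labelled as overexpressing it.

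None of the 4 genes met the rule for a differentially expressed gene, a Benjamini-Hochberg adjusted p under 0.05 over all genes tested together with a fold change over 1.5. By edgeR's quasi-likelihood test this rule called 3.39% of all tested genes. DESeq2 called 0 of the 4 as well, against 4% of all genes. At an unadjusted p under 0.05, 1 of the 4 genes was found by edgeR and 1 by DESeq2, against 15.2% and 12.6% of all genes. That gene was PAO by each test. The normalized counts of OE5 and GL did not overlap for 1 of the 4 genes, again PAO, and for 44.6% of all tested genes. PAO was lower in OE5 at a size below the fold limit, whereas the genotype means of SGR, NYC1 and NOL differed by less than the SD of their GL replicates. The differences of SGR and NOL were larger than the SD of their OE5 replicates.

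**Figure D1:**
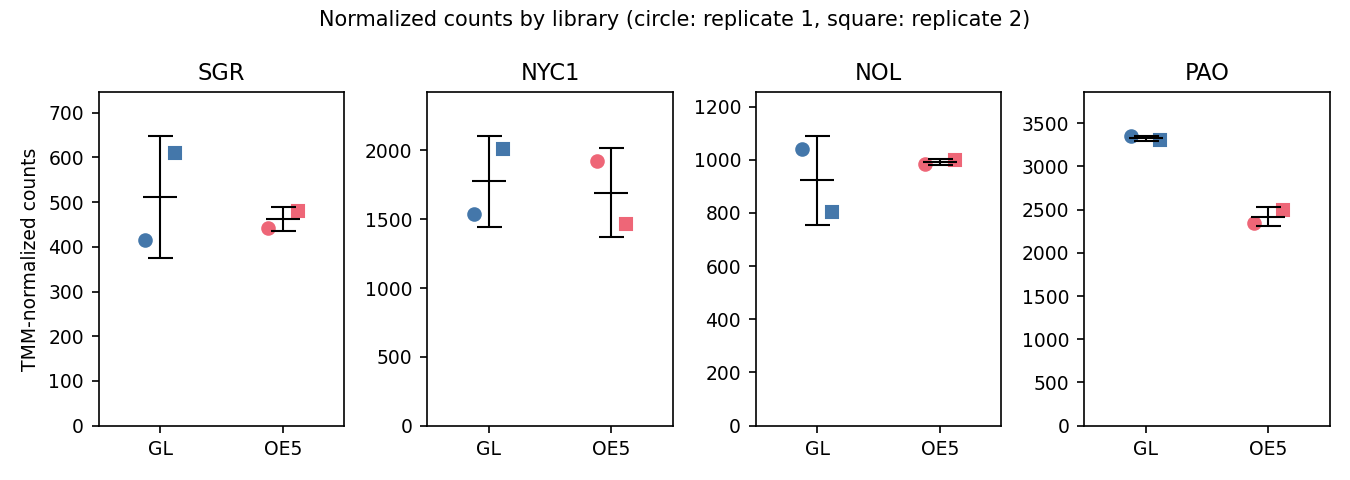
TMM-normalized counts of SGR, NYC1, NOL and PAO in each library, with GL in blue and OE5 in red. Circles are replicate 1, squares are replicate 2, and the black bars are the mean and SD of 2 libraries. The genotypes overlapped for SGR, NYC1 and NOL, and for PAO both OE5 libraries lay below both GL libraries.

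PAO had 3348 and 3301 normalized counts in GL and 2342 and 2499 in OE5. These are counts scaled by the TMM-adjusted size of each library. The OE5 values were thus both below the GL values, and the GL libraries were closely alike. The mean was 3324 ± 33.5 (SD, n = 2) in GL against 2420 ± 111 (SD, n = 2) for OE5. The log2 fold change was -0.46 (standard error 0.11, 95% interval from -0.70 to -0.22, adjusted p = 0.0498 by edgeR). On the linear scale, the level in OE5 was 0.728 of that in GL, with an interval from 0.616 to 0.860. The adjusted p was just under the threshold of 0.05, which 3.85% of all tested genes passed at any fold change, 1.58% with a lower level in OE5. The fold limit of 1.5, or 0.58 on the log2 scale, lay inside the interval. Of all tested genes, 85.3% had a smaller absolute fold change. In whole leaves, fewer cells that express a gene and less RNA per cell cannot be told apart.

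The values of PAO were separated on the TPM scale too. As TPM, PAO had 48.2 and 45.0 in GL and 36.5 and 39.3 in OE5, a ratio of the means of 0.814. Normalized counts were lower in OE5 without overlap in 22.5% of all tested genes, and TPM in 8.63%. The sizes differ because the median log2 difference of all tested genes was -0.01 with TMM scaling and 0.14 on the log2(TPM + 1) scale. The adjusted p of PAO was under 0.05 in 6 of 14 other settings and ranged from 0.00315 to 0.577, the latter without OE5-1 and the former without GL-2. The fold change had the same direction in all 14, and its unadjusted p was under 0.05 in each. The adjusted p was 0.0125 with DESeq2, 0.116 with the replicate number as a block, 0.225 with limma-trend on log2(TPM + 1) and 0.361 without OE5-2.

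SGR had 416 and 609 normalized counts in GL and 443 and 481 in OE5. Both OE5 libraries lay between the GL libraries. Its mean was 512 ± 137 (SD, n = 2) in GL against 462 ± 26.9 (SD, n = 2) for OE5. The log2 fold change was -0.15 (standard error 0.19, 95% interval from -0.57 to 0.28, adjusted p = 0.81 from edgeR). A fold change of 1.5 in either direction lay outside this interval, by a narrow margin for a lower level. The direction turned without GL-2 and with the scale. Without that library, the log2 fold change of SGR was 0.16, without GL-1 it was -0.39, and on the log2(TPM + 1) scale it was 0.03.

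The spread of SGR between the GL libraries was larger than its counting error. GL-2 had 1.46 times the level of GL-1, from 548 and 385 counts with a Poisson error of 4.27% and 5.10%. Of the 3144 tested genes at a similar level (within 0.5 on the log2 scale of mean normalized counts), 94.4% differed less between the GL libraries. Between the OE5 libraries SGR differed by 0.12 on the log2 scale, close to the median of 0.13 for genes at a similar level.

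NYC1 and NOL encode the subunits of chlorophyll b reductase. NYC1 had 1539 and 2010 normalized counts in GL and 1920 and 1467 in OE5. The higher and the lower library of each genotype thus reached nearly the same levels. Its log2 fold change was -0.07 (standard error 0.17, 95% interval from -0.46 to 0.32, adjusted p = 0.916 from edgeR). It was -0.24 without GL-1, -0.27 without OE5-1, 0.14 without GL-2, 0.11 without OE5-2 and 0.09 on the log2(TPM + 1) scale.

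NOL had 1042 and 805 normalized counts in GL and 984 and 1001 in OE5. Both OE5 libraries lay between the GL libraries, as for SGR, but here GL-2 was the lower library. The log2 fold change was 0.10 (standard error 0.14, 95% interval from -0.21 to 0.42, adjusted p = 0.826 from edgeR). It was -0.06 without GL-2 and 0.31 without GL-1. As TPM, NOL had 7.89 and 5.77 in GL and 8.07 and 8.30 in OE5, so on that scale the OE5 values were above the GL values without overlap, as were those of 45% of all tested genes.

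The replicates of NYC1 differed widely in each genotype. GL-2 had 1.31 times the level of GL-1, and OE5-2 had 0.764 times the level of OE5-1. Among the 2663 genes at a similar level, 91.0% differed less between the GL libraries and 97.9% less between the OE5 libraries. For NOL, 88.4% of 3372 genes at a similar level differed less between the GL libraries and 13.2% less between the OE5 libraries. For PAO, 7.52% of 1942 genes at a similar level differed less between the GL libraries and 50.9% less between the OE5 libraries.

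The relation of the subunits was also compared within each library as a ratio of TPM, which does not depend on the scaling of the library. NYC1 had 1.76 and 2.97 times the TPM of NOL in GL and 2.32 and 1.74 times in OE5. The genotypes overlapped. The log2 ratio was 1.19 ± 0.54 (SD, n = 2) in GL against 1.01 ± 0.29 (SD, n = 2) for OE5, and the difference of -0.18 was smaller than the pooled SD of 0.43 (two-sided exact permutation p = 0.667, where the smallest p that 2 libraries against 2 allow is 0.333).

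**Figure D2:**
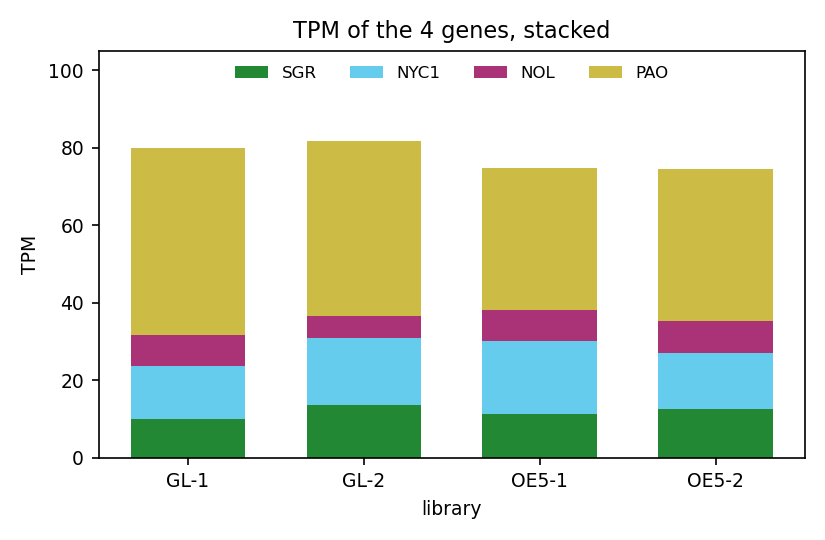
TPM of the 4 genes in each library, stacked from SGR at the bottom to PAO at the top. PAO made up the largest part of each bar, with 60.3% and 55.1% in GL and 48.8% and 52.7% in OE5.

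On the TPM scale, which can be compared between genes, the level of PAO was highest in every library, followed by NYC1, SGR and NOL. PAO had a mean of 46.6 ± 2.26 TPM (SD, n = 2) in GL against 37.9 ± 2.03 TPM (SD, n = 2) in OE5. NYC1 had 15.5 ± 2.33 TPM in GL and 16.6 ± 3.02 TPM in OE5, and SGR had 11.8 ± 2.71 TPM in GL and 11.96 ± 0.787 TPM in OE5 (SD, n = 2). Over the 4 libraries the values of these neighbours in the order came close without overlap, with NYC1 from 13.9 to 18.7 TPM and SGR from 9.89 to 13.7 TPM. NOL was lowest, with 6.83 ± 1.501 TPM (SD, n = 2) in GL against 8.18 ± 0.160 TPM (SD, n = 2) in OE5. By its mean TPM, PAO was above 86.5% of the tested genes, NYC1 above 66.3%, SGR above 57.7% and NOL above 44.6%.

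The summed level of the 4 genes was 79.8 and 81.6 TPM in GL and 74.7 and 74.6 TPM in OE5. PAO accounted for 57.7% ± 3.71 of this sum in GL and 50.8% ± 2.74 in OE5 (SD, n = 2).

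The ratios of TPM were then taken for all 6 pairs of the 4 genes, a comparison added after the values were seen. In 2 pairs the genotypes did not overlap. Both held PAO, whose own TPM did not overlap either, so they are no results apart from that of PAO. PAO had 6.10 and 7.79 times the TPM of NOL in GL and 4.52 and 4.74 times in OE5. It had 4.87 and 3.28 times the TPM of SGR in GL and 3.196 and 3.141 times in OE5. The latter separation was narrow, since GL-2 was close to the OE5 libraries. Each of the 2 pairs had a two-sided exact permutation p = 0.333, the smallest possible here, and an adjusted p of 1 over the 6 pairs. That unadjusted p is also the share of all splits of 4 libraries, 2 against 2, that leave no overlap. The ratio of PAO to NYC1 overlapped, with 3.47 and 2.62 in GL and 1.95 and 2.72 in OE5.

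**Figure D3:**
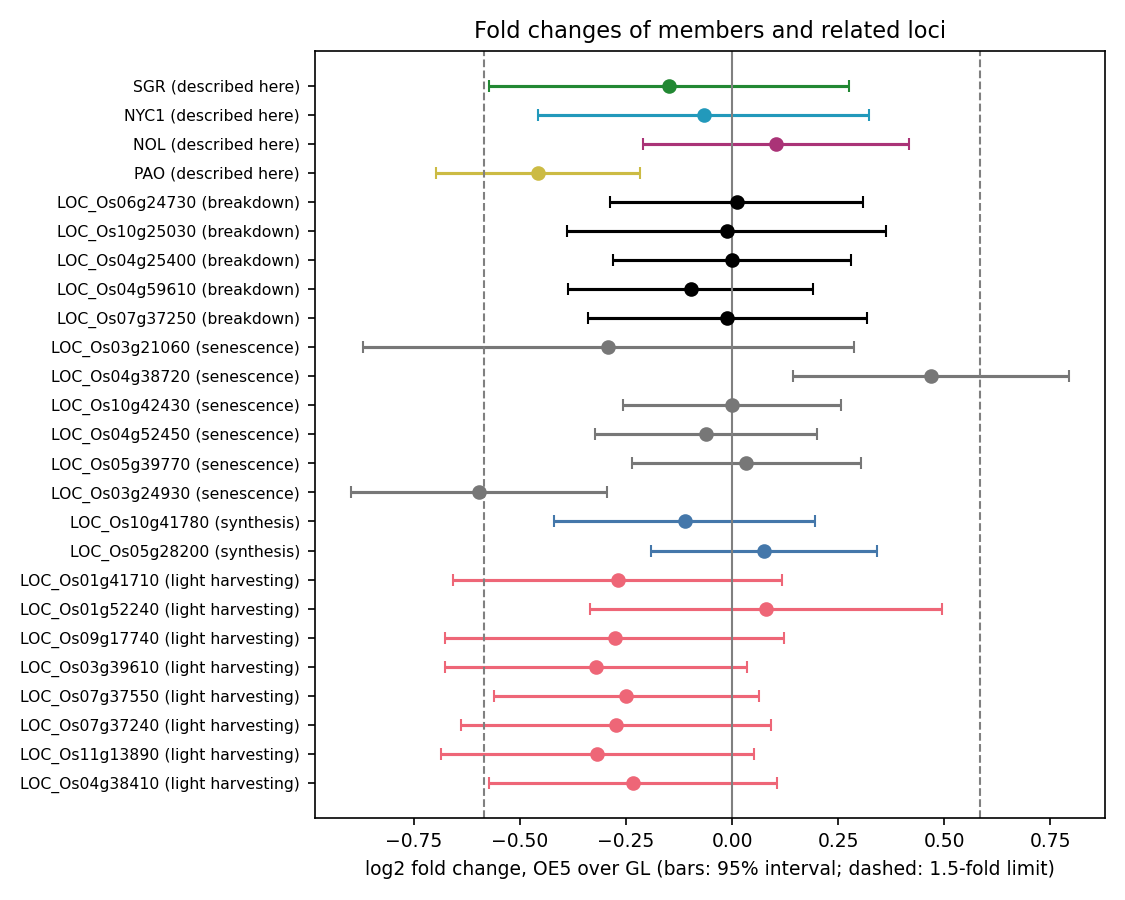
Log2 fold changes of OE5 over GL from edgeR for the 4 genes and for 21 tested loci of related lists. Bars are 95% intervals and dashed lines mark the 1.5-fold limit. The interval of PAO lay below 0, from -0.70 to -0.22, and those of SGR, NYC1 and NOL included 0.

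Related loci were taken from lists compiled from general knowledge of rice genes, and as the tables do not annotate them, they are given by locus. Of 5 other loci listed for chlorophyll breakdown, 0 were called by edgeR and 0 by DESeq2, against 3.39% and 4% of all tested genes. An unadjusted p under 0.05 by edgeR was found for 0 of the 5, against 15.2% of all tested genes. With 5 loci, counts of 0 cannot be told apart from those shares. The log2 fold changes of the 5 loci ran from -0.10, for LOC_Os04g59610, to 0.01, for LOC_Os06g24730. Their median was -0.01, beside a median of -0.01 over all tested genes. PAO, with -0.46, was thus below the range of the other breakdown loci and of SGR, NYC1 and NOL, though its interval overlapped those of the 5 other loci, SGR and NYC1, and lay just below that of NOL.

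Of 7 loci listed as regulators or markers of leaf senescence, 6 were tested and 1 was called, against 3.39% of all tested genes, and 2 had an unadjusted p under 0.05, against 15.2%. The called locus was LOC_Os03g24930, named OsRLCK109 in the study, a receptor-like kinase linked there to leaf senescence. It had 608 and 645 counts in GL and 468 and 518 in OE5 (a change of -0.60 ± 0.13 on the log2 scale, as value and standard error, with an adjusted p of 0.042 by edgeR). The study had already reported this locus as differentially expressed in these same libraries, so its call was known beforehand and is no independent result. The highest value of this list was 0.47, for LOC_Os04g38720, with 375 and 347 counts in GL and 623 and 567 in OE5 (adjusted p = 0.138 from edgeR). The list thus held values on either side of 0, with a median of -0.03. LOC_Os03g21060 was low in every library, from 72 to 78 counts.

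The light-harvesting proteins of photosystem II bind much of the chlorophyll b of the leaf. Of 8 loci listed for them, 0 were called by edgeR and 0 by DESeq2, against 3.39% and 4% of all tested genes. An unadjusted p under 0.05 by edgeR was found for 0 of the 8, against 15.2% of all tested genes. The log2 fold changes ran from -0.32, for LOC_Os03g39610, to 0.08, for LOC_Os01g52240. Their median was -0.27, below the median of -0.01 over all tested genes. These values rest on TMM scaling. The summed TPM of the 8 loci was 59407 to 77137 in GL and 61049 to 66337 in OE5, so the OE5 sums lay within the GL range. Of 2 loci listed for the last steps of chlorophyll a and chlorophyll b synthesis, 0 were called and 0 had an unadjusted p under 0.05, beside the same shares. Their log2 fold changes were -0.11 for LOC_Os10g41780 and 0.08 for LOC_Os05g28200.

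For each of the 4 genes, the tested gene with the most similar profile was found by the root mean square distance of log2 normalized counts, centred on the mean of each gene, over the 4 libraries. For PAO this was LOC_Os04g44180, at a distance of 0.0058, with 170 and 169 normalized counts in GL and 119 and 127 in OE5. By this choice its log2 fold change was close to that of PAO (-0.46). Its standard error was 0.20 and its adjusted p was 0.323 by edgeR. The nearest genes were LOC_Os07g38370 for SGR (distance 0.0124), LOC_Os11g39360 for NYC1 (0.0117) and LOC_Os07g07950 for NOL (0.0032). Within a wider distance of 0.1 lay 326 genes for SGR, 509 for NYC1, 1757 for NOL and 513 for PAO.

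**Figure D4:**
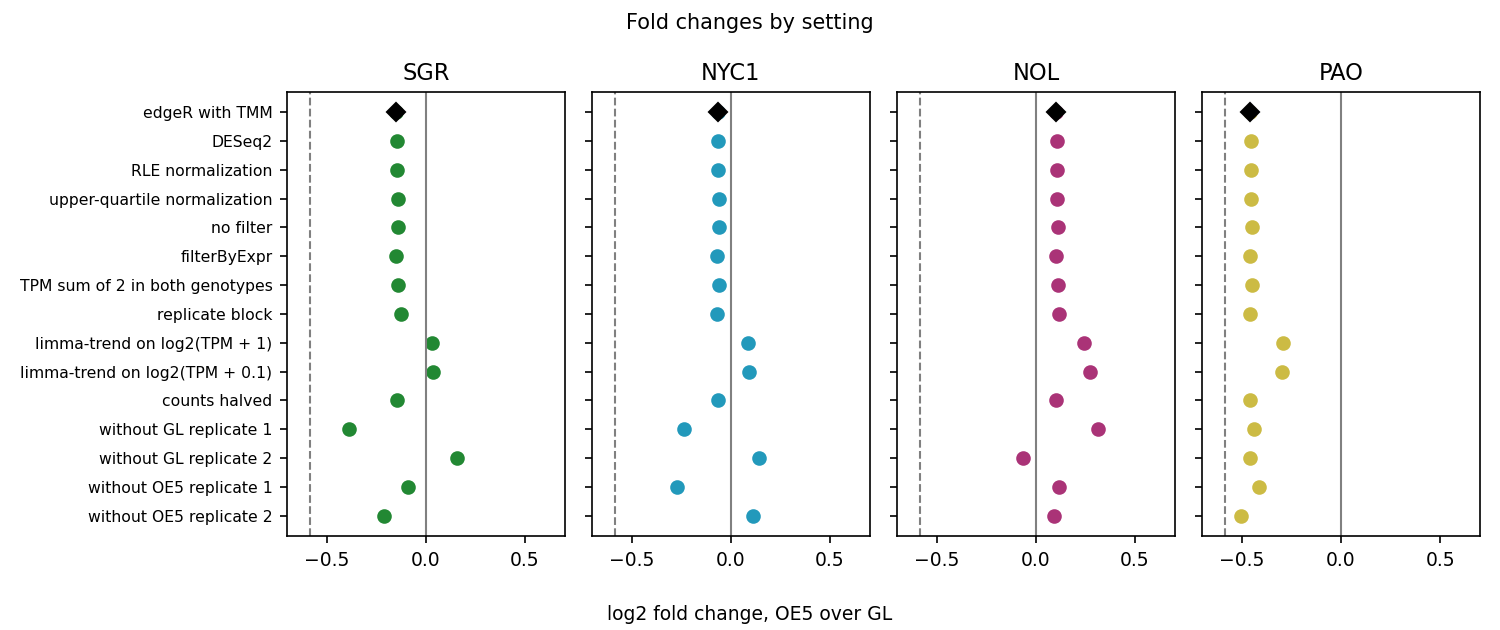
Log2 fold changes of OE5 over GL for each gene under the main setting (black diamond) and 14 other settings. The solid line is 0 and the dashed line is a 1.5-fold lower level. PAO stayed between -0.51 and -0.29, SGR ranged from -0.39 to 0.16, NYC1 from -0.27 to 0.14 and NOL from -0.06 to 0.31.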

How the data were processed

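Leaf RNA libraries of GL and OE5 were analysed, 2 of each, and the 4 bisulfite libraries of these genotypes were not used here. The authors trimmed reads with fastp (0.20.1), used HISAT2 (2.1.0) to map them to the rice genome of Nipponbare (MSU v7.0), and counted with TPMCalculator. The deposited counts are named raw counts and their column headers say reads. They were taken as unscaled reads per locus, which no header states. In the deposited TPM values, the authors divided by gene length and scaled each library to the same total. The handling of strand, multi-mapped and overlapping reads is not given in the sources used here.

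The main test was that of edgeR 4.0.16 under R 4.3.3 (TMM, robust glmQLFit, glmQLFTest, prior count 2). As in the study, genes were kept where TPM summed over the replicates reached 2 in GL or OE5, which kept 19280 of 35961 loci, and a call needed a fold change over 1.5 with an adjusted p under 0.05. All p-values were adjusted over all genes tested. The standard error is the size of the log2 fold change divided by the root of the F statistic, and the 95% interval uses the test's degrees of freedom. DESeq2 1.42.0, limma 3.58.1 on log2(TPM + pseudocount) with pseudocounts of 1 and 0.1, other scalings and filters, halved counts, a replicate block and leaving out each library were alternatives.

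The 4 genes, the lists and the tests were chosen with earlier results of these data known. Named genes were the 4 genes, the gene nearest to each in profile, and from each list the called loci and those with the lowest and highest fold change. LOC_Os03g21060 was named after its values were seen. The study calls the libraries biological replicates, and their counts differed by more than sampling noise (a chi-square statistic of 173 in GL and 51.5 in OE5 for each degree of freedom). No label says that they come from separate plants, so p-values measure the spread between these libraries only. The total counts exceeded the read pairs that the study reports for each library, so mates were probably counted singly, though no source says so. Poisson errors cover counting error only and would then be too small.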

Additional observations from a re-analysis of the deposited data

How the results depend on the processing

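None of the 4 genes was called under any of the 14 other settings. PAO kept its direction in all 14. Of the other genes, SGR turned to 0.033 with limma-trend on log2(TPM + 1) and to 0.036 with a pseudocount of 0.1, and NYC1 to 0.0885 and 0.0933. Leaving out each library in turn, log2 fold changes ranged from -0.39 to 0.16 for SGR, from -0.27 to 0.14 for NYC1, from -0.064 to 0.31 for NOL and from -0.51 to -0.41 for PAO, and the log2 ratio of NYC1 to NOL from -0.56 to 0.20. The cause of these turns was not tested.

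Over all genes, 653 were called, 407 higher and 246 lower in OE5. Without a filter 1207 were called, with limma-trend on log2(TPM + 1) 429, of which 359 were higher and 70 lower, and with a pseudocount of 0.1 370. Without a library the number ranged from 194 to 1270, with the lone library assumed to vary like the others. The replicate block gave 708 calls, and -0.13, -0.07, 0.11 and -0.46 for SGR, NYC1, NOL and PAO. No source says that the numbers pair the libraries, and across genes, which are not independent replicates, the deviations in GL and OE5 correlated with r = 0.116 (Pearson) and rho = -0.123 (Spearman). A crossed pairing, chosen after seeing the data, gave 751 calls. The number of called loci in the related lists stayed at 1 with DESeq2 and without a filter. The parts of replicate spread and depth in the width of the intervals of SGR, NYC1 and NOL were not tested. Changes inside those intervals were not excluded.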
